A study of Homo sapiens with 3 samples.

Results

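Solute carriers (SLC proteins) are the membrane proteins that move sugars, amino acids, nucleosides, metals, vitamins and metabolites across the plasma membrane and organelle membranes. Most work as facilitated carriers, as exchangers or by coupling a solute to an ion gradient. Members of the SLC25 family sit in the inner mitochondrial membrane and join the metabolite pools of matrix and cytosol. In growing cells the best studied members supply glutamine, essential amino acids and nucleosides and export lactate.

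The genes described here are those whose symbol in the peak lists begins with SLC and a digit. The 3 lists named 46 of them among 3809 gene symbols. Each peak was assigned by the RefSeq accession that its annotation names. After that step 42 of the 46 genes, of 3581 in the whole series, held 560 of all 46819 peaks. For 33 of the 42 the transcript was one of the gene itself or, for the antisense gene SLC25A5-AS1, of its partner SLC25A5 (497 peaks on own transcripts in this sense), and these 33 carry most of the description below.

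HEK293T is a human embryonic kidney cell line that carries the SV40 large T antigen. The cells received empty pCDNA3.1 vector, FLAG-tagged wild-type DDX3X (WT DDX3X) or FLAG-tagged DDX3X carrying the medulloblastoma substitution G325E, and were collected 24 h after transient transfection. DDX3X, of the DEAD-box family of RNA helicases, takes part in translation, and endogenous DDX3X was present in every culture. Per the labels, harringtonine (2 µg/ml for 90 seconds), which holds ribosomes at start codons, preceded cycloheximide (100 µg/ml), whereas the study's methods describe cycloheximide only. There was 1 library per construct, so no difference below could be set against the spread between cultures, no test was made, and the intervals cover counting error alone.

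The vector list held 11219 peaks, the WT list 19920 and the G325E list 15680, and the lists gave no read counts. By the study's supplement, WT had the most mapped reads after duplicates were removed and G325E the fewest. Peak numbers were not scaled to reads here. The fewest peaks taken as a floor (3) are 0.0267%, 0.0151% and 0.0191% of these lists. Fewer ribosomes on an mRNA and less of that mRNA cannot be told apart in such lists. DDX3X itself had 0 peaks in vector, 32 in WT and 9 in G325E. The labels call the cells both HEK293T and neuronal. Of 12 neuronal markers 3 had peaks (TUBB3, NEFL and NEFM, 31, 35 and 51 peaks in vector, WT and G325E), while MAP2, RBFOX3, SNAP25, SYP, SYT1, STMN2, GAP43, DCX and INA had none. Of 9 genes taken as kidney and epithelial markers 3 had peaks, while PAX2, PAX8, WT1, LHX1, EPCAM and CDH1 had none. VIM had 18, 20 and 19 peaks in vector, WT and G325E. The keratins KRT18 (11 peaks) and KRT8 (1 peak) had peaks in WT alone.

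The peak numbers run in genome order, and 14.8% of them are skipped in the vector list, 13.5% in the WT list and 0% in the G325E list. What the skipped numbers stood for was not analysed here. For 32 of the 33 genes with listed peaks on both sides, the numbers skipped across the gene and 1000 bases around it were counted. Of the 33 pairs of such a gene and a list that holds no peak of it, 26 had no skipped number. These 26 include the pairs with the G325E list, which skips no number anywhere and so could not show one. The other 7 pairs belonged to SLC12A2 and SLC35F2 in vector, SLC35G1 in WT, and SLC15A4 and SLC25A23 in both. At SLC15A4 the skipped numbers came to 8 in vector and 11 in WT.

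Sequences of 4 start codons under peaks are shown first, because they are the places where ribosomes begin, in 4 of the genes with many peaks. Each run is 30 bases of hg19 on the gene's strand, from 6 bases before the start codon, which is in capitals. The peaks were longer than these windows, except the 24-base G325E peak of SLC38A2.
SLC3A2, chr11:62648490-62648519, plus strand: ggcaccATGagccaggacaccgaggtggat
SLC7A5, chr16:87903005-87903034, minus strand: cagagcATGgcgggtgcgggcccgaagcgg
SLC25A6, chrX:1510879-1510908, minus strand: gccaccATGacggaacaggccatctccttc
SLC38A2, chr12:46765053-46765082, minus strand: cttagcATGaagaaggccgaaatgggacga

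The start codons of SLC3A2 and SLC7A5 lay under a peak in all 3 lists. That of SLC25A6 did so in vector and WT and that of SLC38A2 in WT and G325E. In SLC3A2 the peak over the start codon was 83 bases long in vector, 72 in WT and 37 in G325E. In SLC7A5 the lengths were 185, 165 and 189 bases. In SLC38A2 the WT peak was 144 bases and the G325E peak 24.

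The next 4 sequences are whole short coding peaks of the G325E list that overlapped a peak in each of the other lists, and so mark stretches where all 3 libraries held ribosome fragments.
SLC7A5, chr16:87902691-87902719, minus strand, at codon 108: gcggagctcggcaccaccatctccaaatc
SLC25A1, chr22:19165730-19165753, minus strand, at codon 36: gcggcctggcgggtggcatcgaga
SLC25A6, chrX:1508533-1508559, minus strand, at codon 62: ttgtccgcatccccaaggagcagggcg
SLC25A6, chrX:1508409-1508435, minus strand, at codon 104: cctggggggcgtggacaagcacacgca

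The SLC25A1 stretch was bounded by the same first and last base in all 3 lists. In the 31 bases around its midpoint 71.0% were G or C, against 64.5% at each of the other 3 sites.

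Of the 42 genes, 19 had a peak in vector, 33 in WT and 28 in G325E. The same figures over all 3581 genes were 56.5%, 84.0% and 64.5%. Counting only peaks on the gene's own transcripts, 14, 25 and 27 of 33 genes had a peak. All 19 carriers of the vector list were also in the WT list, as were 94.96% of the vector list's genes over the whole series. The carriers took 1.27% of the vector peaks (95% Wilson interval 1.08 to 1.4995), 1.15% of the WT peaks (1.015 to 1.31) and 1.19% of the G325E peaks (1.03 to 1.37), and these intervals overlap.

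The lists in which a gene appeared differed between carriers. All 3 lists held 12 of the 42 genes (38.8% of all genes were of this kind). Each of the 12 was annotated to its own transcript, although all peaks of SLC25A11 lay on the opposite strand and outside it. Peaks in WT and no other list were found for 7 genes (background 19.1%), of which 4 were on their own transcripts. Peaks in G325E and no other list were found for 9 genes (background 13.2%), of which 8 were on their own transcripts. WT and G325E shared 7 genes with no peak in vector (background 11.2%). Vector and WT shared 7 genes with no peak in G325E (background 14.9%), and 5 of these 7 had all of their peaks on a transcript of another gene. No carrier was in the vector list alone.

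**Figure D1:**
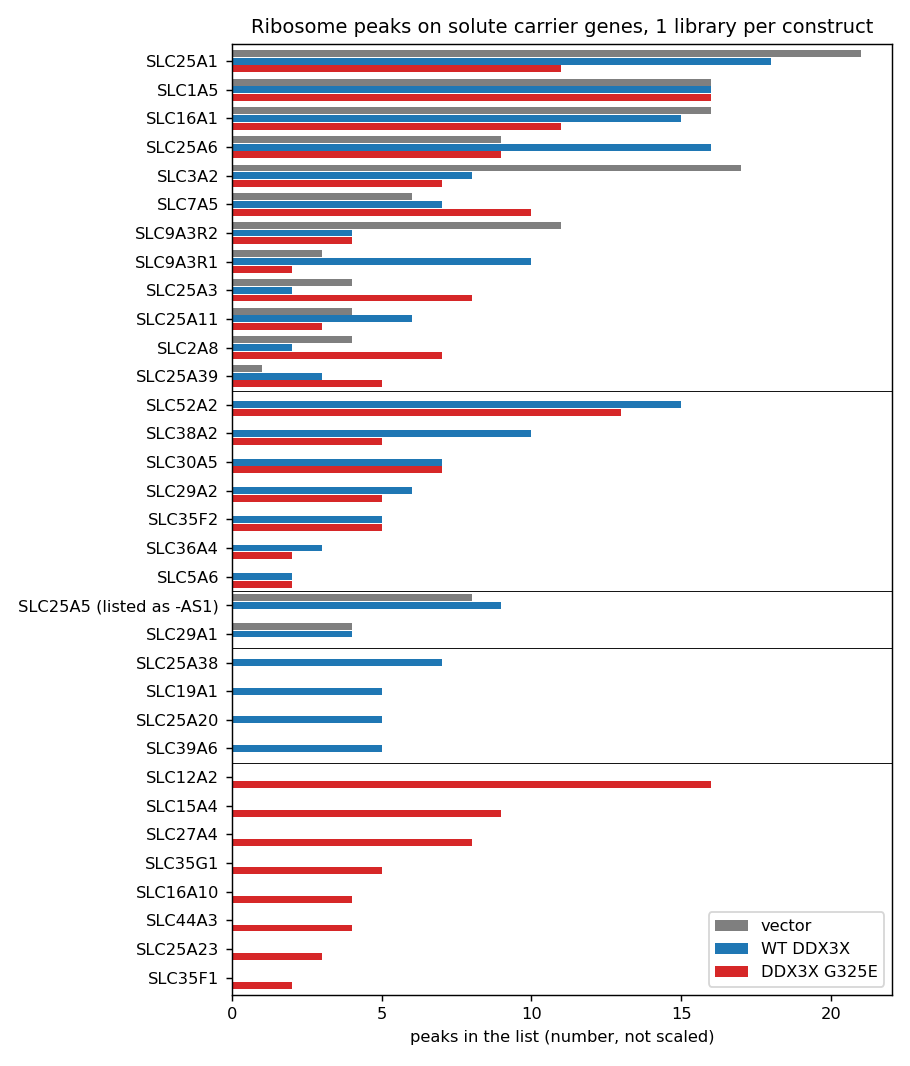
Peaks on each of the 33 genes with a peak annotated to its own transcript. The horizontal axis gives the number of peaks in the list, not scaled to list size, for vector (grey), WT DDX3X (blue) and DDX3X G325E (red), and lines separate genes by the lists that hold them. The 12 genes at the top have bars in all 3 colours and the 8 at the bottom, led by SLC12A2 with 16 peaks, have red bars alone.

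Among the amino acid carriers, SLC1A5, the sodium-dependent exchanger that brings glutamine into cells, had 16 peaks in each list. It lies on the minus strand of chromosome 19 (chr19:47278140-47291851). Against the canonical transcript, 8 vector, 7 WT and 11 G325E peaks fell in the 5′-UTR and 8, 9 and 4 in the coding sequence. The coding peaks reached no further than codon 189 in any list, so the peaks gathered at the 5′ end. Together the peaks covered 25.6%, 27.7% and 24.95% of its coding bases in vector, WT and G325E.

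SLC3A2 and SLC7A5 form the heavy and light chain of the heteromeric LAT1 transporter, which takes up leucine and other large neutral amino acids. SLC3A2 had 17 peaks in vector, 8 in WT and 7 in G325E. Scaled to the same list total, the WT number was 0.265 of the vector number (95% exact interval 0.0990 to 0.648) and the G325E number 0.295 (0.103 to 0.748). The lists also differed along the coding sequence. Vector coding peaks ran from codon 22 to codon 515, whereas those of WT ended at codon 125 and those of G325E at codon 136. SLC7A5 had 6, 7 and 10 peaks, and its scaled ratio of G325E to WT was 1.81 with an interval of 0.624 to 5.62. Its coding peaks lay between codons 16 and 179 in every list. The chains of this transporter did not share an order of peak numbers over the lists.

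SLC38A2, a sodium-coupled carrier of small neutral amino acids, had 0 peaks in vector, 10 in WT and 5 in G325E. By their midpoints, its WT peaks fell in the 5′-UTR (5) and in introns (5). Those of G325E fell mainly in the coding sequence (3), at codons 4 to 35. Peaks of both lists reached into the coding sequence, over 3.82% of its bases in WT and 4.68% in G325E. SLC36A4, a carrier of proline and tryptophan, had 0, 3 and 2 peaks. SLC15A4, a lysosomal carrier of histidine and short peptides, had 9 peaks in G325E and none in the other lists, both of which skip numbers there. Of these 9 peaks 6 lay on the strand opposite to the gene, including the 1 over its start codon.

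Among the mitochondrial carriers, SLC25A1, which exports citrate for lipid synthesis, had the most peaks of any member. It had 21 peaks in vector, 18 in WT and 11 in G325E, on the minus strand at chr22:19163094-19166249. The scaled ratio of G325E to vector was 0.375 (0.163 to 0.813) and of WT to vector 0.483 (0.242 to 0.952). The ratio of G325E to WT was 0.776 with an interval of 0.331 to 1.74, which includes 1. Coding peaks reached codon 174 in vector and codon 280 in WT but codon 69 in G325E. The start codon lay under a peak in G325E alone.

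The ADP/ATP carriers exchange cytosolic ADP for matrix ATP. SLC25A6 had 9 peaks in vector, 16 in WT and 9 in G325E, covering 20.2%, 56.7% and 36.4% of its coding bases. It lies in the pseudoautosomal region, so the same sequence is present on both sex chromosomes, and the lists place it on X (chrX:1505045-1511006). The scaled ratio of WT to vector was 1.00 (0.417 to 2.57) and of G325E to WT 0.715 (0.278 to 1.72). The peaks under the symbol SLC25A5-AS1, an antisense RNA, were 8 in vector, 9 in WT and 0 in G325E. They lay on SLC25A5, the neighbouring ADP/ATP carrier gene (chrX:118602407-118605359). In its coding sequence 4 vector and 5 WT peaks were given a codon, from codon 198 on. The remaining 4 and 4 were annotated to the antisense RNA's start site but lay on the other strand, in exons of SLC25A5. These were given no codon, although some of them covered coding bases too. Together the peaks covered 173 coding bases in vector and 281 in WT. The coding sequences of SLC25A5 and SLC25A6, 894 bases each, were 78.7% identical at the same positions. Of the 874 stretches of 21 bases in SLC25A6, the shortest read length that was kept, 9 were also present in SLC25A5.

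SLC25A3, the phosphate carrier of the inner mitochondrial membrane, had 4, 2 and 8 peaks in vector, WT and G325E. The ratio of G325E to WT was 5.08 with an interval of 1.01 to 49.1, and the ratio of G325E to vector was 1.43 (0.383 to 6.49). The coding peaks of SLC25A3 stayed within codons 12 to 40 and numbered 2, 1 and 2. Peaks covered nearly the same part of its coding bases in each list, 12.7%, 13.6% and 13.0%. SLC25A39, which takes glutathione into mitochondria, had 1, 3 and 5 peaks, none of them in the coding sequence. SLC25A11, the oxoglutarate carrier, had 4, 6 and 3 peaks by its promoter, and all 13 lay on the opposite strand, 10 of them in exons of RNF167. SLC25A38, which carries glycine for haem synthesis, had 7 peaks and SLC25A20, the carnitine/acylcarnitine carrier, had 5, in each case in WT alone. SLC25A23, an ATP-magnesium/phosphate carrier, had 3 peaks, in G325E alone.

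Of the SLC2, SLC5 and SLC16 genes, SLC16A1 (MCT1), which moves lactate and pyruvate with protons, had 16 peaks in vector, 15 in WT and 11 in G325E (chr1:113454469-113498818, minus strand). Its ratio of G325E to WT was 0.932 (0.387 to 2.17). Its coding peaks began at codon 147 in all 3 lists and ended at codon 486, 486 and 487. In G325E too, peaks of SLC16A1 reached the end of the coding sequence. SLC2A8, an intracellular glucose transporter, had 4, 2 and 7 peaks, all of its coding peaks lay within the first 72 codons, and its start codon was covered in all 3 lists. Of the SLC2A8 peaks 3, 1 and 4 lay on the opposite strand. The ratio of G325E to WT for SLC2A8 was 4.45, with an interval of 0.847 to 43.9 that includes 1. SLC16A10, which carries aromatic amino acids, had 4 peaks, in G325E alone. SLC5A6, a carrier of biotin and pantothenate, had 2 peaks in WT and 2 in G325E. All of them lay on the opposite strand, and 3 of the 4 in exons of ATRAID.

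Among the carriers of nucleosides and related solutes, SLC29A1 (ENT1) and SLC29A2 (ENT2), equilibrative nucleoside transporters, had different lists. SLC29A1 had 4 peaks in vector, 4 in WT and 0 in G325E. SLC29A2 had 0, 6 and 5 peaks, and its start codon was covered by a 58-base peak with the same bounds in WT and G325E. Coding peaks of SLC29A1 lay at the far end, in codons 427 to 450, and those of SLC29A2 at the near end, in codons 1 to 37. Of the SLC35 genes, SLC35F2 had 0, 5 and 5 peaks, SLC35G1 had 5 and SLC35F1 had 2, the latter pair in G325E alone.

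Both zinc carriers among the 33 genes had peaks in WT and none in vector. SLC30A5, which loads zinc into the secretory pathway, had 7 peaks in WT and 7 in G325E, of which 4 and 3 lay in the 5′-UTR. SLC39A6, a zinc importer, had 5 peaks in WT alone, all in the coding sequence from codon 164 to codon 259. Among carriers of vitamins and lipids, SLC52A2, the riboflavin transporter, had 0 peaks in vector, 15 in WT and 13 in G325E. Its WT coding peaks (12) ran from codon 46 to codon 437 and its G325E coding peaks (7) from codon 44 to codon 290. Of all SLC52A2 peaks 7 in WT and 6 in G325E lay on the opposite strand, and coding peaks of both lists were among them. Of its 8 peaks off the transcript, 6 lay in exons of FBXL6 on the other strand. SLC19A1, the reduced folate carrier, had 5 peaks in WT alone. SLC27A4, a fatty acid transport protein, had 8 peaks and SLC44A3, of the choline transporter-like family, had 4, both in G325E alone. Of the 8 SLC27A4 peaks 5 lay outside the transcript, 4 were on the opposite strand and 0 fell in the coding sequence.

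SLC12A2 (NKCC1), which takes up sodium, potassium and chloride together, had 16 peaks in G325E and 0 in vector and WT. It lies on the plus strand of chromosome 5 (chr5:127419458-127525369). Each peak was placed on the transcript of its annotation. Of the 16 peaks 3 lay in the 5′-UTR, 6 in the coding sequence and 7 outside that transcript. Of these 7, 2 lay in an exon of SLC12A2 on its strand. The 6 coding peaks lay at codons 56 to 189 of 3636 coding bases. Of the 16 peaks 3 were on the strand opposite to the transcript they were placed on. One peak number was skipped at this gene in vector and 0 in WT. SLC9A3R1 and SLC9A3R2 carry the SLC prefix but encode PDZ scaffold proteins that bind carriers. SLC9A3R2 had 11, 4 and 4 peaks, with a ratio of WT to vector of 0.205 (0.0476 to 0.691) and of G325E to vector of 0.260 (0.0604 to 0.878). SLC9A3R1 had 3, 10 and 2, and only WT held coding peaks of it (4, at codons 275 to 342). The ratio of G325E to WT for SLC9A3R1 was 0.254, with an interval of 0.0271 to 1.19.

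**Figure D2:**
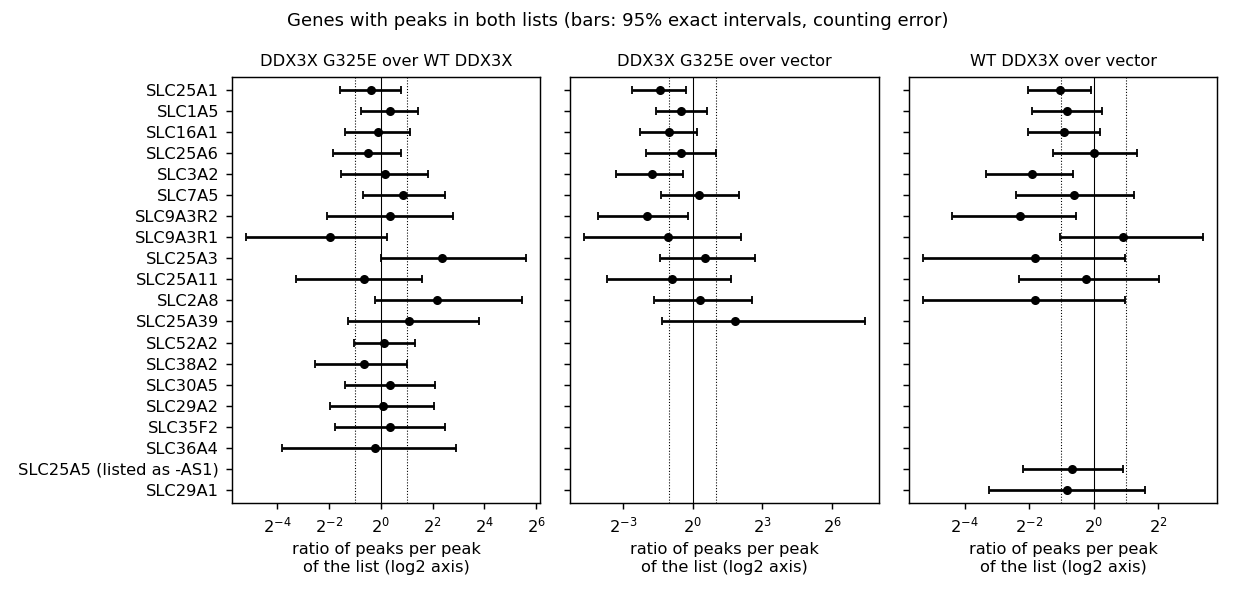
Ratio of peak numbers between 2 lists, each scaled to its list total, for genes with peaks in both lists and at least 5 in sum. Points give the ratio on a log2 axis, bars the 95% exact interval from counting alone, the solid line no difference and the dotted lines 2-fold. Most bars cross the solid line, and those of SLC3A2, SLC25A1 and SLC9A3R2 lie below it in both comparisons with vector.

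A 2-fold difference in scaled peak number (with 0.5 added to each number, in genes with at least 5 peaks over the pair of lists) was counted for the 3 comparisons, which share lists with each other. Between G325E and WT, 31 carriers could be compared. Of these 6 were at least 2-fold higher in G325E (19.4%, against 25.0% of all genes) and 10 at least 2-fold lower (32.3%, against 28.0%). In 4 of the 6 and 9 of the 10 the other list held no peak of the gene. On own transcripts 6 of 27 were higher and 6 lower (22.2% each). The share of lower genes was then below that of all genes, which were not limited to own transcripts. Only SLC25A3 and SLC2A8, higher in G325E, and SLC9A3R1, lower, had peaks in both lists and a 2-fold difference. The median log2 ratio was -0.09 over the carriers, 0.15 over those on own transcripts and 0.10 over all genes.

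Between G325E and vector, 23 carriers could be compared, and 10 were at least 2-fold higher in G325E (43.5%, against 32.4% of all genes) and 6 lower (26.1%, against 21.4%). Of the 10, 9 had no peak in vector, and SLC25A39 was the exception with 5 peaks against 1. The SLC25A39 ratio was 3.58, with an interval of 0.4003 to 169 that includes 1. Of its 5 G325E peaks 3 lay outside the transcript and 3 were on the opposite strand. Between WT and vector, 26 were compared, and 10 were at least 2-fold higher in WT (38.5%, against 26.3%), each of them with no peak in vector, and 6 lower (23.1%, against 17.4%). The 6 were SLC9A3R2, SLC3A2, SLC25A3, SLC2A8, SLC25A1 and SLC29A4, and the peaks of SLC29A4 all lay on TNRC18.

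Where peaks lay within the carriers also differed between lists. The annotation has a promoter-TSS class, which takes any peak close to a transcription start site before its exon is considered. It held 34.3% of the carriers' peaks in vector (95% Wilson interval 27.0 to 42.4), 28.7% in WT (23.2 to 34.9) and 48.7% in G325E (41.6 to 55.8). In all other genes the values were 22.9%, 21.05% and 34.5%. Among the carriers the G325E interval lay above that of WT and overlapped that of vector, and each carrier interval lay above the value of other genes. Of the peaks in 5′-UTR, coding or 3′-UTR classes alone, the 5′-UTR took 14.9% in vector (10 of 67 peaks, 8.31 to 25.3), 18.5% in WT (23 of 124, 12.7 to 26.3) and 23.1% in G325E (18 of 78, 15.1 to 33.6), with overlapping intervals. Other genes had 9.003%, 8.74% and 19.1%. On own transcripts the carriers' shares were 20%, 25.3% and 23.1%, so that G325E was no longer the highest.

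**Figure D3:**
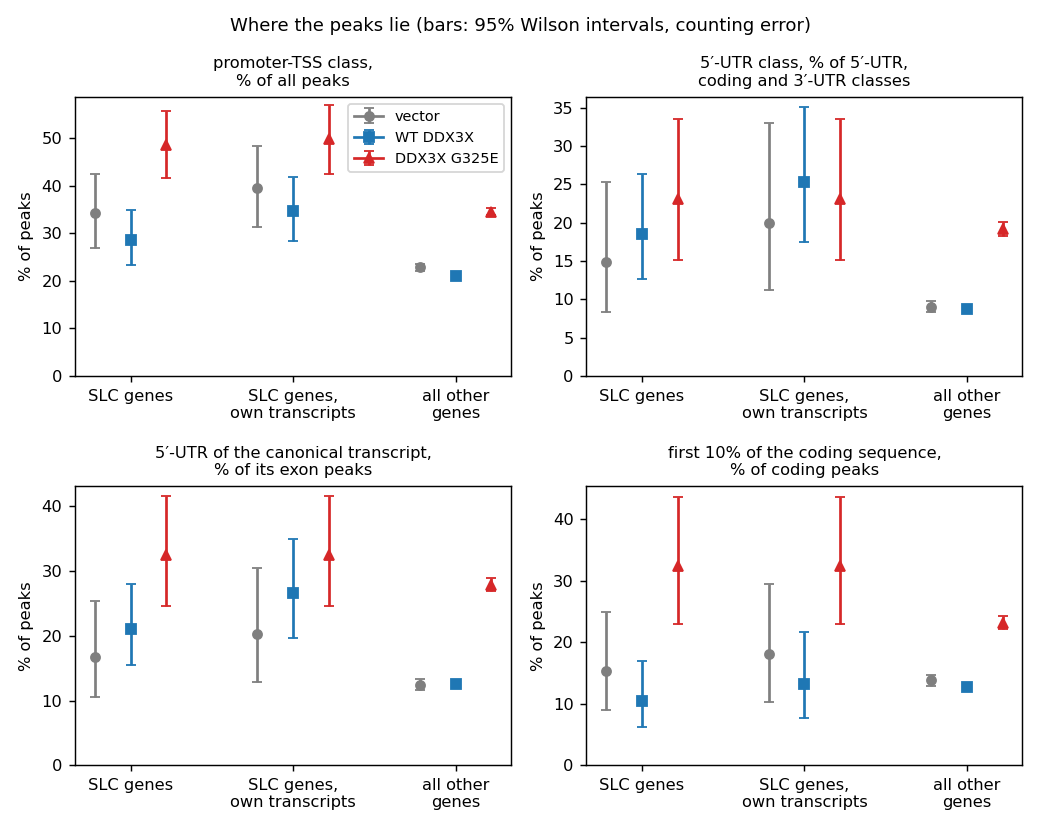
Share of peaks in 4 placements (percent, vertical axes) for the 42 SLC genes, for peaks of SLC genes on own transcripts and for all other genes. Points are the lists (grey vector, blue WT DDX3X, red DDX3X G325E) and bars 95% Wilson intervals. The red points are the highest in the promoter-TSS class and in the first 10% of the coding sequence, whereas in the 5′-UTR class the 3 intervals of the carriers overlap.

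When peaks were placed on the canonical transcript, which has no promoter class, the 5′-UTR held 16.7% of the carriers' exon peaks in vector, 20.99% in WT and 32.5% in G325E (24.6 to 41.5). On own transcripts the values were 20.3%, 26.6% and 32.5%. The coding peaks lay closer to the start codon in G325E. With 0 for the start codon and 1 for the end of the coding sequence, the mean position on own transcripts was 0.390 ± 0.310 in vector (SD over 61 peaks), 0.457 ± 0.317 in WT (91 peaks) and 0.226 ± 0.216 in G325E (77 peaks). In all other genes, which were not limited to own transcripts, the means were 0.493, 0.502 and 0.397. Over the 42 carriers without that limit they were 0.471, 0.545 and 0.226. The peaks of 1 gene share a transcript, so these SDs are no replicate error.

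The first 10% of the coding sequence held 18.0% of own-transcript coding peaks in vector (10.4 to 29.5), 13.2% in WT (7.71 to 21.6) and 32.5% in G325E (23.1 to 43.5). In other genes, again not limited to own transcripts, it held 13.8%, 12.8% and 23.2%. Beyond the midpoint of the coding sequence lay 19 of 61 vector peaks (31.1%), 39 of 91 WT peaks (42.9%) and 10 of 77 G325E peaks (13.0%). The SLC25A5-AS1 peaks that were given a coding position all lie there, and its peaks annotated to the antisense start site were given none. Without SLC25A5-AS1, the numbers beyond the midpoint were 15 of 57, 34 of 86 and 10 of 77, and the mean positions 0.366, 0.437 and 0.226. In the genes that all 3 lists held, the mean position was 0.345, 0.409 and 0.267, so the distance between G325E and the other lists was smaller there. SLC16A1, SLC25A6 and SLC52A2 were the genes with G325E peaks beyond the middle of the coding sequence.

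**Figure D4:**
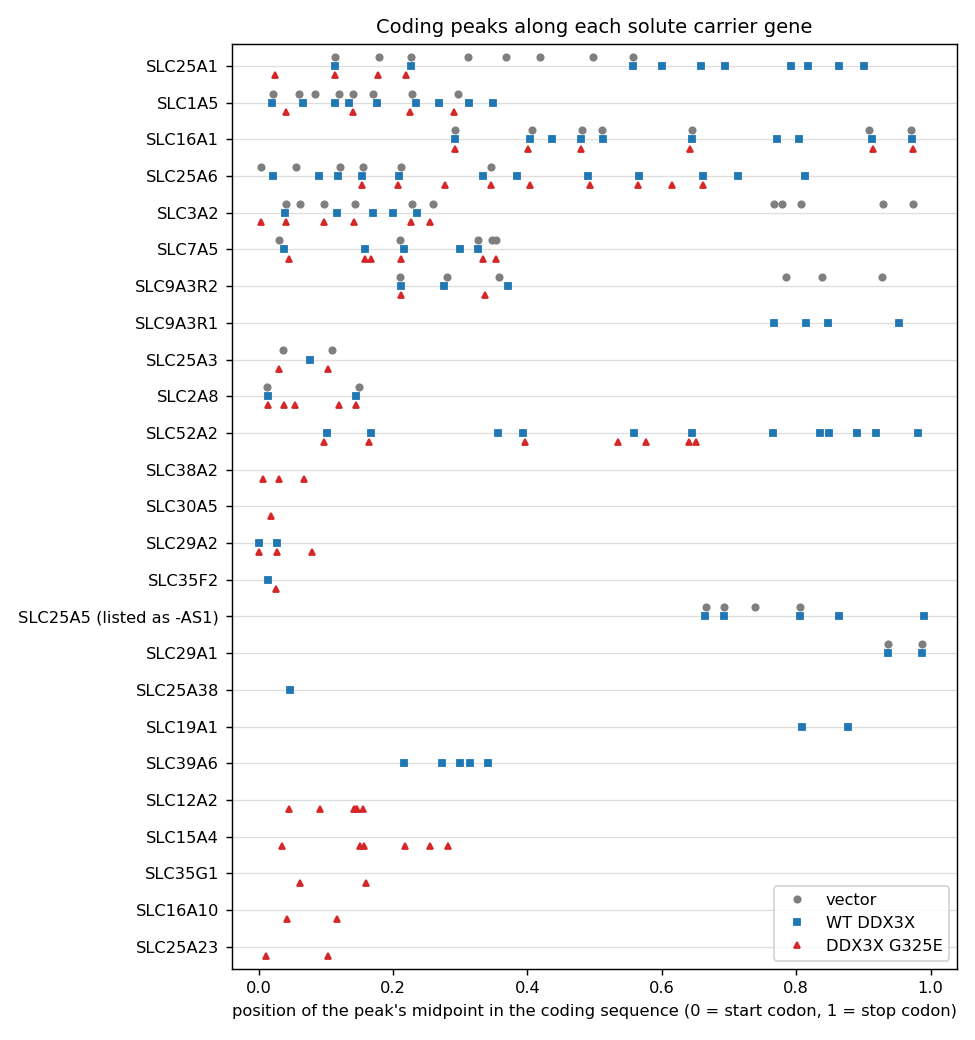
Position of each coding peak's midpoint along the coding sequence (horizontal axis, from 0, the start codon, to 1, the end) for genes with a coding peak on their own transcript. Peaks on either strand are included. Grey circles are vector, blue squares WT DDX3X and red triangles DDX3X G325E. The red triangles of the genes held by G325E alone all sit in the first part of the coding sequence, whereas those of SLC16A1 reach the end of it.

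The GC content of the carriers' peaks, measured in 31 bases around the midpoint, moved with these placements. It averaged 61.8% in vector, 59.9% in WT and 70.6% in G325E for peaks of the coding class, and 66.1%, 68.6% and 74.4% for those of the 5′-UTR class. Other genes had 58.7%, 58.0% and 67.6% in the coding class. The 8 genes held by G325E alone had peaks with a mean GC content from 77.4% (SLC35G1) to 88.7% (SLC16A10). In the 4 genes held by WT alone the mean ran from 51.0% (SLC39A6) to 74.8% (SLC25A20). The whole coding sequences of these sets were alike, with a median GC content of 51.6% and 51.9%. The genes held by all 3 lists had a median of 62.8% and the 7 held by WT and G325E one of 48.8%. The part of GC content in the differences between lists was not tested.

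A start codon lay under a peak on the gene's strand in 5 of the 14 own-transcript genes of vector, 11 of 25 in WT and 9 of 27 in G325E. SLC2A8, SLC3A2 and SLC7A5 had one in all 3 lists, SLC25A6 and SLC29A1 in vector and WT, and SLC29A2, SLC35F2, SLC36A4 and SLC38A2 in WT and G325E. SLC1A5 and SLC25A20 had one in WT alone, and SLC25A1 and SLC25A23 in G325E alone.

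Peaks at the same place were compared by overlap of at least 1 base. Of the carriers' G325E peaks 49.7% overlapped a WT peak (42.6 to 56.8) and of their WT peaks 37.8% a G325E peak. Of the G325E peaks 31.6% overlapped a vector peak and of the vector peaks 42.0% a G325E peak. Of the WT peaks 40.4% overlapped a vector peak and of the vector peaks 69.2% a WT peak. Other genes had 47.6% and 35.1%, 35.7% and 48.4%, and 41.9% and 77.3% for the same pairs. The interval of the carriers' vector peaks found in WT (61.2 to 76.2) lay below the value of other genes.

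Not every listed carrier was measured as one. For 9 genes every peak lay on a transcript of a neighbouring gene (63 peaks): SLC6A8 on BCAP31 (14), SLC29A4 on TNRC18 (13), SLC25A47 on WARS1 (11), SLC6A4 on NSRP1 (5), and SLC23A1 on PAIP2, SLC25A30 on TPT1-AS1, SLC25A32 on DCAF13, SLC25A42 on ARMC6 and SLC27A3 on INTS3 (4 each). These include the serotonin transporter SLC6A4 and the creatine transporter SLC6A8. Their values say nothing of the carrier. All but those of SLC25A30 were in vector or WT. For 4 more genes the symbol stood beside a peak but no peak stayed with it: SLC16A3 (peaks on CSNK1D), SLC25A17 (ST13), SLC39A3 (SGTA) and SLC8A3 (SMOC1). Of own-transcript peaks, 22.6% were on the opposite strand in vector, 21.6% in WT and 23.5% in G325E, with SLC25A11, SLC5A6, SLC25A5-AS1 and SLC52A2 among the genes described above. Those counted for SLC25A5-AS1, 4 in vector and 4 in WT, were opposite to the antisense RNA but on the strand of SLC25A5.

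Of 24 carriers of central metabolism chosen for their roles, 12 had a peak under their own symbol: 9 in vector, 11 in WT and 10 in G325E, with 97, 107 and 96 peaks. SLC2A1 and SLC2A3 (glucose), SLC16A3 (lactate), SLC7A11 (cystine), SLC38A1 (glutamine), SLC25A4 (ADP/ATP) and SLC25A13 (aspartate/glutamate) were among those without one. Among proteins that work with carriers, basigin (BSG), the chaperone of SLC16A1, had 5, 8 and 9 peaks in vector, WT and G325E, and the outer-membrane channel VDAC2 had 2, 3 and 7. ATP1B3, a beta subunit of the sodium pump, had 5, 6 and 10 peaks, and ATP1B1, another beta subunit, had 2 in WT alone. BRP44 (MPC2, of the mitochondrial pyruvate carrier) had 1 in vector and 1 in WT. EMB, VDAC1, VDAC3 and MPC1 had none.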

How the data were processed

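The deposited files list ribosome peaks, 1 list per library, as positions with an annotation and no count, height or score. Per the study's methods, the authors trimmed adapters with cutadapt, dropped reads shorter than 21 bases, aligned with BWA (0.5.5 in the submitters' processing notes) to hg19 with transcript sequences, removed duplicates, called peaks on base coverage and annotated them with HOMER (version not given in the sources used here). Each construct has 1 library, grouped by its title.

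A peak belongs to the gene of the RefSeq accession in its annotation, or else to the listed gene name. Listed starts fell 1 base inside 5654 exon starts and ends at 5793 exon ends, so 1 base was added before each start. Canonical transcripts came from GENCODE release 44 on GRCh37, and gene names of accessions from the RefSeq table. Regions, coding positions and coding bases under peaks were taken from peaks on either strand. Peaks on the accession of another gene were counted as not on the gene's own transcript, except SLC25A5 for SLC25A5-AS1. Peak numbers were scaled to list totals with a pseudocount of 0.5, compared in genes with at least 5 peaks over 2 lists, and called at 2-fold. The fold calculation was tested on simulated data. Shares carry 95% Wilson intervals and ratios exact (Clopper-Pearson) intervals, for counting error only. Software was Python 3.11.15, numpy 2.4.6, pandas 2.3.3, scipy 1.17.1 and matplotlib 3.10.9. Named genes were the 12 with most peaks, those with the largest ratios, the leading gene of each role, genes held by 1 list and the 24 central carriers. Remaining members are named to account for all. Members, lists and rules were chosen with earlier results of these data known. The alternatives tried were other gene assignments, regions, strands, scalings, minimums and overlaps. 1 gene of the family and 1 other gene are not reported here.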

Additional observations from a re-analysis of the deposited data

Results flagged for a closer look

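The promoter-TSS class lies outside the UTRs and coding regions that were compared, and 48.7% of the carriers' peaks in G325E were in it, above the 34.3% in the vector list, although the 95% Wilson intervals of both overlap. The same class held 34.5% of the peaks of other genes in G325E and 22.9% in vector. With 1 library per construct, this difference has no replicate check. Groups of 1 sample could not be searched for outlying samples.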

How the results depend on the processing

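Of 159 values recomputed under alternatives, 128 stayed within 1.5 times (counts) or within the interval of the reported value (shares and positions), and all 18 counts of carriers with a peak did so. G325E had the lowest mean coding position under all 8 settings, the reported one included, none of which was limited to the gene's strand. The 5′-UTR share was highest in G325E under 8 of 10 settings. The exceptions were own transcripts and equal GC classes, where WT was at 23.5% and G325E at 20.9%. Counting promoter-TSS peaks as 5′-UTR gave 50.9%, 46.8% and 64.5% in vector, WT and G325E. The share of all peaks moved to 1.40% in G325E with genes from the RefSeq table and to 0.954% in WT on own transcripts. The RefSeq table and own transcripts, with and without SLC25A5-AS1, were added as alternatives after seeing the data. The mean coding position moved in vector and WT, to 0.383 and 0.449 with the RefSeq table, to 0.390 and 0.457 on own transcripts and to 0.366 and 0.437 when SLC25A5-AS1, too, was left out. Overlap in genes held by all 3 lists rose to 69.9% (G325E in WT), 63.4% (G325E in vector) and 61.7% (WT in vector). In lists reduced to their longest peaks, equal in number, it was 39.8% for G325E in vector and 47.9% for WT in vector, and 33.9% for WT in vector with the RefSeq table. Counts of genes 2-fold apart moved most where 0 was left out. With peaks required in both lists, they were 2 higher and 1 lower (G325E against WT), 1 higher (G325E against vector) and 0 higher (WT against vector). With at least 10 peaks, they were 2 and 2, 2 higher, and 2 higher. With peaks in 5′-UTR, coding or 3′-UTR classes alone, they were 6 lower (G325E against WT), 3 higher and 3 lower (G325E against vector) and 3 higher (WT against vector). Without scaling, 2 were lower in WT than in vector. On own transcripts, 6 were lower in G325E than in WT. Other causes of these shifts were not tested. Read depth differed between the libraries by the study's supplement, so a gene with no peak may have been below the cut-off of the lists. The part of depth was not tested.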

Other observations

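Other transporter groups had few genes in the lists. The organic anion transporter genes SLCO2A1, SLCO3A1 and SLCO5A1, which the SLC-and-digit rule leaves out, had 1, 4 and 4, then 5, 4 and 13, and then 3, 3 and 13 peaks in vector, WT and G325E. The ABC genes had 15, 30 and 5 peaks. ABCF1 and ABCF2, which belong to the ABC family but act in translation and carry no solute, had 5, 12 and 3 and 3, 9 and 0 of them. ABCG1, a sterol exporter, had 7, 6 and 2, and ABCC6 had 3 in WT alone. These counts have no replicate check.

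Some carriers had peaks that the lists name after a neighbour and that only the RefSeq accession shows. SLC38A10 had 9 peaks in WT listed under C17orf89, SLC35A2, the UDP-galactose transporter, had 7, 6 and 7 peaks under PQBP1 in the class around transcript ends, SLC39A14 had 3 in vector and 2 in WT under PPP3CC, and SLC7A1, the arginine carrier CAT1, had 3 in WT under MTUS2-AS1.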
